A study of Homo sapiens with 16 samples.

Results

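The genes of the eIF4F translation initiation complex and its direct regulators were examined in IMR32 cells after knockdown of TPX2. The 10 genes were taken by name, with no threshold on their values, out of the 58787 gene identifiers in the count table. They are EIF4E, EIF4A1, EIF4A2, EIF4G1, EIF4G3, EIF4G2, EIF4B, EIF4H, EIF4EBP1 and PDCD4, and all 10 had enough counts to be tested. They were chosen with earlier results of these data known. IMR32 is an established human neuroblastoma cell line, and the same line was used in every group. One group received a non-targeting siRNA (siNTC), and 3 groups each received a different siRNA against TPX2 (si45, si46 and si47), with 4 libraries per group and 48 h in the column headers of the table. TPX2 encodes a microtubule-associated protein that activates Aurora A kinase at the mitotic spindle. The series title places TPX2 downstream of translation that depends on eIF4A, so the comparison here runs in the other direction, from loss of TPX2 mRNA to the mRNAs of eIF4F. The siRNAs lower the mRNA without deleting the gene, and all groups are 1 cell line. The series calls the 4 libraries of a group biological replicates, but no label says that they were separate cultures, and p-values measure the spread between these libraries.

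eIF4F brings the small ribosomal subunit to capped mRNA. Within it, eIF4E binds the cap, eIF4G is the scaffold, and eIF4A is an RNA helicase that unwinds structure in the 5' leader with the help of eIF4B or eIF4H. 4E-BP1, encoded by EIF4EBP1, holds eIF4E away from eIF4G until mTOR phosphorylates it, and PDCD4 binds eIF4A and blocks its helicase activity. MYC-family oncoproteins, including the MYCN of neuroblastoma, are known for raising the demand on this machinery. mRNA levels say nothing of the phosphorylation of 4E-BP1 or of the assembly of the complex.

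PDCD4 is a textbook target of the microRNA miR-21, and its 3' UTR site is shown because PDCD4 was the member that separated most cleanly from the controls. The mature microRNA is from RefSeq (GRCh38.p14, chr17:59841273-59841294, plus strand), with the seed, bases 2 to 8, in capitals. The site is from GENCODE v29 on GRCh38 (chr10:110898316-110898337, plus strand), 22 bases of the 3' UTR of transcript ENST00000280154, with the match to the seed and the base after it in capitals.
hsa-miR-21-5p: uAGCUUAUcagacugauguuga
PDCD4 3' UTR site: agtggaatattctaATAAGCTA
The motif ATAAGCTA, searched on the transcript's own strand only, occurred 1 time in the 1918 bases of this UTR, starting at position 242. The longest 3' UTR of 460 of 19105 genes, 2.41%, held it. The match describes the sequence only. The MIR21 gene had 0 counts in all 16 libraries, and mature microRNAs have no poly(A) tail for a poly(A)-primed kit to capture.

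Each library held 5318159 to 7864343 counts, with a median of 5966581.5, without the genes of the mitochondrial genome. Levels are given as CPM, counts scaled by library size, with TMM factors. TPX2 fell from 327 ± 27.1 CPM (SD, n = 4) with siNTC to 91.6 ± 19.8 with si45, 81.7 ± 14.3 with si46 and 71.5 ± 3.37 with si47. All 9 neuroblast markers summed here, such as HAND2 and DBH, were at 1 CPM or more in every library. Their sum was 3685 to 3898 CPM with siNTC, 3828 to 4443 with si45, 4315 to 4939 with si46 and 4377 to 4919 with si47. The sum lay above the controls in all si46 and si47 libraries and overlapped them with si45, and its part in the results below was not tested. Of 8 markers of the mesenchymal neuroblastoma state, 2 reached 1 CPM in every library and TWIST2 was at 0, for a sum of 24.8 to 76.7 CPM. Of 11 markers of other cell types, 10 stayed under 1 CPM in every library, CD3E and LYZ were at 0, and the sum was 0 to 2.97 CPM.

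In the control cells the CPM of the 10 mRNAs spanned a wide range. The libraries read the 3' end of each transcript, so CPM was not divided by transcript length. Whether the 3' ends of all members were captured and counted alike was not tested. The order below is therefore one of counts and need not be that of mRNA abundance, for the low EIF4H as for the others. The scaffold-like EIF4G2 was highest at 932 ± 26.7 CPM, followed by EIF4G1 at 458 ± 9.95. EIF4B (113 ± 16.2), EIF4A2 (91.9 ± 8.12), EIF4G3 (83.3 ± 13.4) and EIF4E (75.8 ± 2.83) came next, and each overlapped its neighbour in this order over the 4 control libraries. EIF4EBP1 (65.7 ± 5.91), PDCD4 (49.1 ± 5.42), EIF4A1 (21.7 ± 3.58) and EIF4H (7.12 ± 3.46) followed without overlap between neighbours. The helicase paralog EIF4A2 was thus read at 4.24 times the level of EIF4A1. For EIF4A1 that level carries a further limit of counting. The last 300 bases of its main transcript share all 251 windows of 50 bases with AC016876.2, a transcript on the same strand that had 0 to 5 counts. The other 9 members shared 0 of 251. SENP3-EIF4A1, also on the same strand, shares 1586 of the 5316 exonic bases of EIF4A1, though none of these windows, and had 0 counts in every library. Each gene was examined by its longest main coding transcript, whose end need not be the 3' end that was read. How reads from shared sequence were counted is not given in the sources used here, and the part of these overlaps in the EIF4A1 level was not tested.

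**Figure D1:**
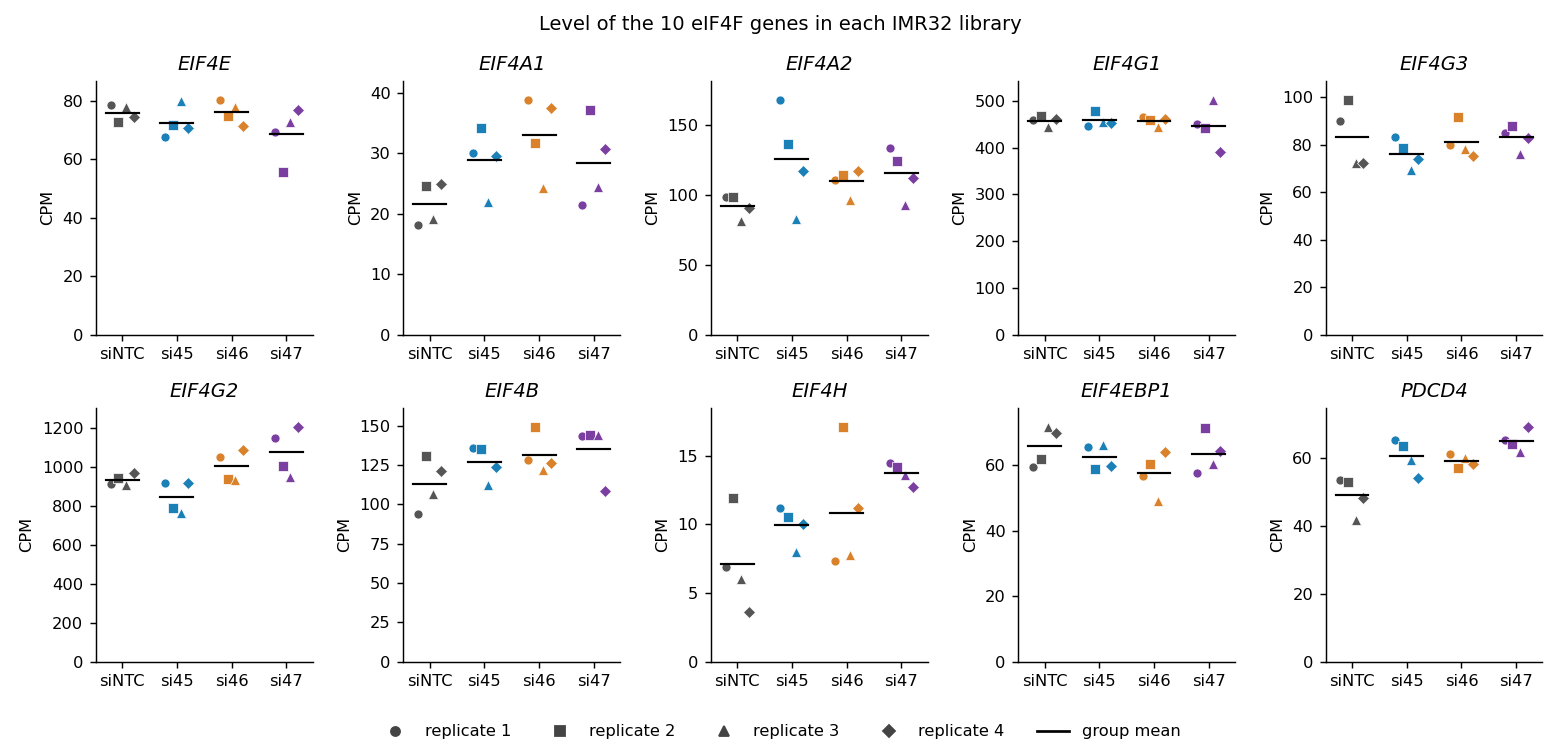
CPM (linear axis from 0, its own scale for each gene) of the 10 eIF4F genes in the 16 libraries, by siRNA group; symbols give the replicate number and bars the group mean. PDCD4 is the gene for which all 12 knockdown points lie above all 4 control points, and EIF4A2 has its lowest point in replicate 3 of all 4 groups.

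After knockdown, 2 of the 10 mRNAs were higher by the mean of the 3 siRNAs against siNTC, the helicase EIF4A1 and its inhibitor PDCD4, and none was lower (edgeR quasi-likelihood test, Benjamini-Hochberg adjusted p under 0.05 over 14193 genes). In bulk RNA of a culture, a change in the share of cells and a change in RNA per cell cannot be told apart. Of all genes tested, 7.14% were called in this comparison, 3.61% higher and 3.53% lower. At an unadjusted p under 0.05, 5 members were higher (EIF4A1, EIF4A2, EIF4B, EIF4H and PDCD4) and 0 lower, beside 10.1% of all genes higher and 10.3% lower. The median log2 fold change of the 10 was 0.13, and that of all genes tested was -0.0011. The 5 others (EIF4E, EIF4EBP1, EIF4G1, EIF4G2 and EIF4G3) lay between -0.10 and 0.06 on the log2 scale. Fold changes of the separate siRNAs share the 4 siNTC libraries and are not independent of each other. The fit used here ignores the replicate number. With it as a block, EIF4A2, EIF4B and EIF4H were also called by the mean (edgeR adjusted p = 0.00148, 0.0450 and 0.0115). That fit called 1817 of all 14193 genes by the mean, beside 1014 without the block.

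Calls were also made for each siRNA alone, again without the replicate number. With si45, 0 of 10 members were called by edgeR, limma-voom or DESeq2, where 1.34% of all genes were called by edgeR. At an unadjusted edgeR p under 0.05, 3 members (EIF4A1, EIF4A2 and PDCD4) were higher with si45, beside 5.95% of all genes. With si46, EIF4A1 alone was called, where 3.40% of all genes were. With si47, EIF4H and PDCD4 were called, where 9.74% of all genes were. At an unadjusted edgeR p under 0.05, 3 members were higher and 0 lower with si46, beside 1106 higher and 1018 lower of 14193 genes. With si47 these were 6 higher and 0 lower, beside 1670 higher and 1640 lower. The median log2 fold change of the members was 0.08, 0.16 and 0.23 with si45, si46 and si47, beside medians of 0.00097, 0.0024 and 0.0043 over all genes.

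**Figure D2:**
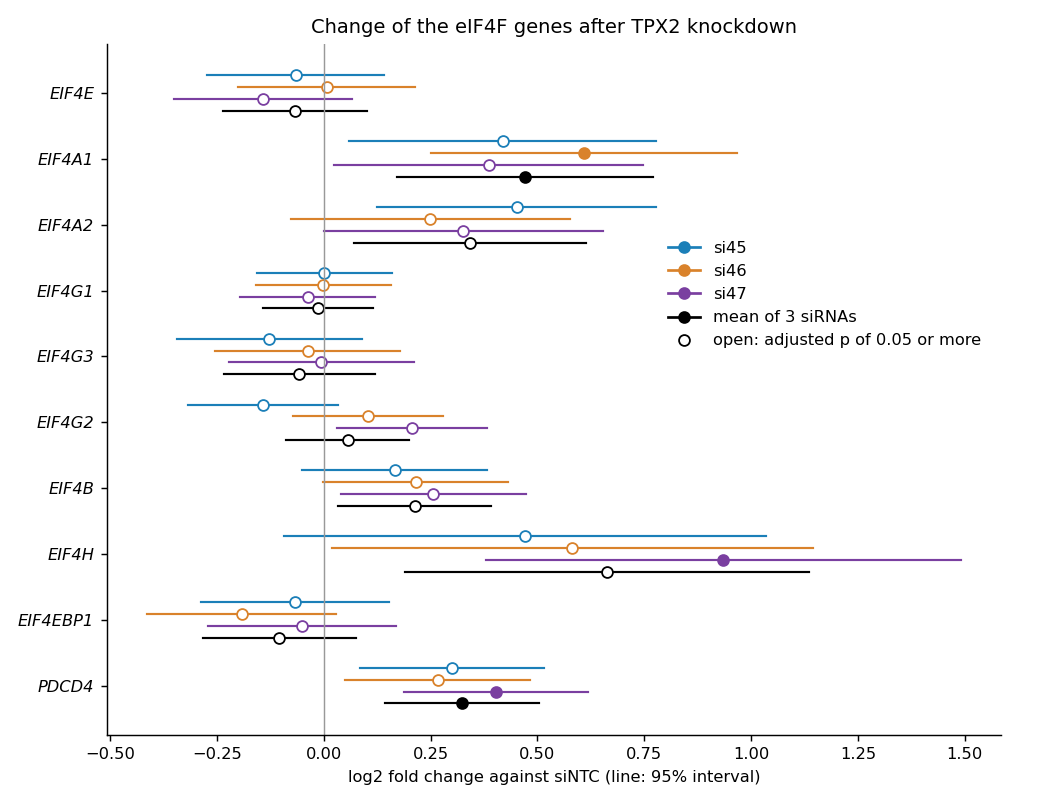
log2 fold change (x axis) of each eIF4F gene with each siRNA and with the mean of the 3 siRNAs against siNTC, from edgeR; points are estimates, lines 95% intervals, and filled points have an adjusted p under 0.05. EIF4A1 and PDCD4 are filled for the mean, at 0.47 and 0.32, and the intervals of EIF4E, EIF4G1, EIF4G3 and EIF4EBP1 cross 0 with every siRNA.

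The cap-binding subunit passed the test in no comparison. EIF4E (ENSG00000151247, chr4, 98871684 to 98930637, minus strand, as all gene positions here from GENCODE v29 on GRCh38) was at 78.4, 72.6, 77.9 and 74.2 CPM in siNTC replicates 1 to 4. It was at 67.5, 71.6, 79.8 and 70.7 with si45, at 80.3, 74.8, 77.9 and 71.3 with si46, and at 69.2, 55.7, 72.6 and 76.9 with si47. The groups overlapped, and the lowest library was si47 replicate 2. The mean log2 fold change was -0.07 (95% interval -0.24 to 0.10, edgeR adjusted p = 0.710).

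EIF4EBP1, whose protein competes with eIF4G for eIF4E, was at 59.5, 61.9, 71.7 and 69.7 CPM in siNTC replicates 1 to 4. It was at 65.7, 58.9, 66.2 and 59.8 with si45, at 56.6, 60.4, 49.2 and 63.9 with si46, and at 57.7, 71.3, 60.5 and 64.2 with si47. No knockdown library exceeded the highest control and 4 lay below the lowest, with si46 replicate 3 the lowest of all. The mean log2 fold change was -0.10 (95% interval -0.28 to 0.07, edgeR adjusted p = 0.555). The count of EIF4EBP1 relative to EIF4E within a library had a geometric mean of 0.865 with siNTC, 0.866 with si45, 0.753 with si46 and 0.928 with si47. The largest of these 3 differences from siNTC, that of si46, was -0.20 on the log2 scale (two-sided exact permutation p = 0.2, 0.6 after adjustment over 9 ratio tests). With 4 against 4 libraries no p can go below 0.0286, or 0.257 after adjustment where 1 ratio alone is that extreme, so these tests could not call a single ratio and do not show that it was stable.

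The helicase EIF4A1 (ENSG00000161960, chr17, 7572706 to 7579005, plus strand) was at 18.1, 24.6, 19.1 and 25.0 CPM in siNTC replicates 1 to 4. It was at 30.1, 34.2, 22.0 and 29.5 with si45, at 38.9, 31.6, 24.2 and 37.4 with si46, and at 21.5, 37.2, 24.4 and 30.6 with si47. In 8 of 12 knockdown libraries it lay above every control, and the 4 exceptions were replicate 3 of each siRNA and replicate 1 of si47. The level rested on 101 to 307 counts per library. EIF4A1 rose 1.52-fold with si46 (log2 0.61, SE 0.176, edgeR adjusted p = 0.0464) and 1.39-fold by the mean of the 3 siRNAs (log2 0.47, SE 0.148, edgeR adjusted p = 0.0462). With si45 and si47 its log2 fold changes were 0.42 and 0.39 (edgeR adjusted p = 0.332 and 0.180). The call for the mean was lost without any 1 of 12 of the 16 libraries, with edgeR adjusted p from 0.0554 to 0.197 and log2 fold changes from 0.39 to 0.54. These 12 were all 4 siNTC libraries, replicates 1, 2 and 4 of si45 and of si46, and replicates 2 and 4 of si47. The call for si46 was lost without any 1 of 9 libraries, namely all 4 of siNTC, replicates 1, 2 and 4 of si46, and replicate 4 of si45 or of si47, with log2 fold changes from 0.52 to 0.68 and edgeR adjusted p from 0.0525 to 0.176. Under limma-voom the adjusted p was 0.0814 for the mean and 0.0782 for si46.

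EIF4A2, the second cytoplasmic eIF4A helicase (ENSG00000156976, chr3, 186783205 to 186789900, plus strand), was at 98.3, 98.1, 81.1 and 90.2 CPM in siNTC replicates 1 to 4. It was at 167.7, 135.8, 82.4 and 116.7 with si45, at 110.4, 114.0, 96.5 and 116.6 with si46, and at 133.3, 124.1, 92.6 and 111.6 with si47. All 9 knockdown libraries other than those of replicate 3 lay above every control, and in all 4 groups replicate 3 was the lowest. The mean log2 fold change was 0.34 (SE 0.130, 95% interval 0.07 to 0.61), which missed the threshold (edgeR adjusted p = 0.126). With all libraries kept, it passed with no low-count filter (log2 0.35, edgeR adjusted p = 0.00311). It also passed with the replicate number as a block (log2 0.33, edgeR adjusted p = 0.00148), but not under limma-voom. Without si45 replicate 3 alone it passed, at 0.39 (edgeR adjusted p = 0.00475), and the value for si45 went from 0.45 (adjusted p = 0.220) to 0.61 (adjusted p = 0.00177). Without the replicate 3 libraries of all 4 groups, a choice made after seeing the data, the mean log2 fold change was 0.39 (edgeR adjusted p = 0.00545). si45 replicate 3 also kept the most TPX2 mRNA of its group, 121 CPM beside 79.4 to 85.1 in the 3 others, and the part of this in the EIF4A2 result was not tested. RFC4, a replication factor gene on the opposite strand that shares 21 of 6133 exonic bases with EIF4A2, fell by 0.44 on the log2 scale (edgeR adjusted p = 0.00715). The part of this overlap in the EIF4A2 result was not tested.

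The helicase paralogs were also compared within each library. The count of EIF4A1 relative to EIF4A2 had a geometric mean of 0.235 with siNTC, 0.236 with si45, 0.299 with si46 and 0.244 with si47. The si46 difference was 0.35 on the log2 scale (two-sided exact permutation p = 0.0571, 0.514 after adjustment over 9 tests). The libraries of si46 and siNTC overlapped.

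PDCD4, the helicase inhibitor (ENSG00000150593, chr10, 110871795 to 110900006, plus strand), was at 53.6, 52.9, 41.8 and 48.2 CPM in siNTC replicates 1 to 4. It was at 65.2, 63.5, 59.3 and 54.1 with si45, at 61.1, 57.1, 59.9 and 58.3 with si46, and at 65.2, 64.0, 61.8 and 69.1 with si47. All 12 knockdown libraries lay above all 4 controls, with si45 replicate 4 the closest. PDCD4 was the one member with such a separation, which 1.49% of all genes tested showed in this direction. It rose 1.25-fold by the mean of the 3 siRNAs (log2 0.32, SE 0.0882, 95% interval 0.14 to 0.50, edgeR adjusted p = 0.0190) and 1.32-fold with si47 (log2 0.40, SE 0.106, edgeR adjusted p = 0.0112). With si45 and si46 the log2 fold changes were 0.30 and 0.27 (edgeR adjusted p = 0.203 and 0.197). The call for the mean was lost without siNTC replicate 3, the lowest control (log2 0.25, adjusted p = 0.127), and without siNTC replicate 4 (log2 0.31, adjusted p = 0.0670). It was also lost without the replicate 3 libraries of all 4 groups (log2 0.26, adjusted p = 0.0898). The si47 call was lost without siNTC replicate 3 (edgeR adjusted p = 0.0592). BBIP1, on the opposite strand, shares 1277 of 4547 exonic bases with PDCD4, and whether counting used strand is not given in the sources used here. BBIP1 had 70 to 163 counts per library and a mean log2 fold change of 0.07 (edgeR adjusted p = 0.834).

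Inhibitor and helicase were compared in the same way. The count of PDCD4 relative to EIF4A1 had a geometric mean of 2.27 with siNTC, 2.11 with si45, 1.82 with si46 and 2.33 with si47. The si46 difference of -0.32 on the log2 scale had a two-sided exact permutation p of 0.171 (0.6 after adjustment over 9 tests).

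**Figure D3:**
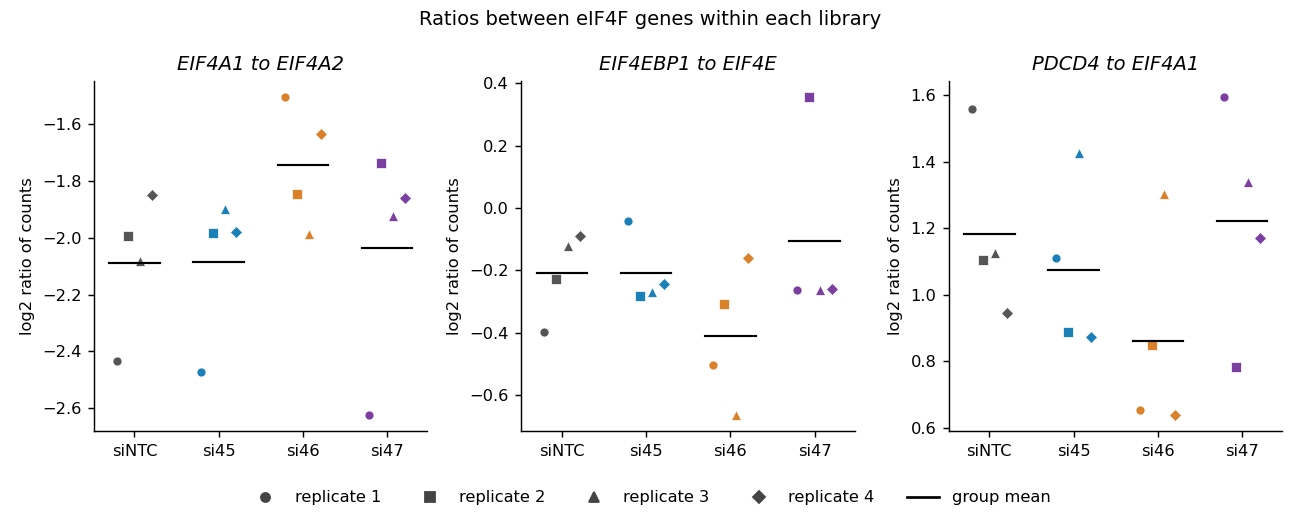
log2 ratio of counts within a library (y axis, own scale per panel, not starting at 0) for EIF4A1 to EIF4A2, EIF4EBP1 to EIF4E and PDCD4 to EIF4A1, by siRNA group; symbols give the replicate number and bars the group mean. Each siRNA group overlaps siNTC in all 3 panels.

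Of the helicase cofactors, the main test, which ignores the replicate number, called EIF4H with si47 only and did not call EIF4B. The difference between siRNAs for EIF4H did not itself pass the test. With the replicate number as a block, both were called by the mean. EIF4H (ENSG00000106682, chr7, 74174245 to 74197101, plus strand) was the lowest of the members, at 21 to 94 counts per library. It was at 6.9, 11.9, 6.1 and 3.6 CPM in siNTC replicates 1 to 4, at 11.2, 10.5, 8.0 and 10.03 with si45, at 7.3, 17.1, 7.7 and 11.2 with si46, and at 14.5, 14.2, 13.6 and 12.7 with si47. All 4 si47 libraries lay above every control, and si46 replicate 2 was the highest library of all. EIF4H rose 1.91-fold with si47 (log2 0.94, SE 0.273, 95% interval 0.38 to 1.49, edgeR adjusted p = 0.0239). With si45 and si46 its log2 fold changes were 0.47 and 0.58 (edgeR adjusted p = 0.553 and 0.312), and by the mean it was 0.66 (SE 0.232, edgeR adjusted p = 0.0785). The si47 call was lost without siNTC replicate 1 (adjusted p = 0.0618), 3 (0.0715) or 4 (0.11), and without si47 replicate 1 (0.0600) or 2 (0.0536). The mean passed without siNTC replicate 2, the highest control (log2 1.04, edgeR adjusted p = 0.0103).

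EIF4B, whose protein stimulates eIF4A (ENSG00000063046, chr12, 53006158 to 53042209, plus strand), was at 94.0, 130.6, 106.3 and 121.3 CPM in siNTC replicates 1 to 4. It was at 135.8, 135.3, 112.0 and 123.9 with si45, at 128.2, 149.1, 121.7 and 126.1 with si46, and at 143.7, 144.2, 144.0 and 108.4 with si47. The groups overlapped, with 6 of 12 knockdown libraries above every control and si47 replicate 4 apart from the 3 others of its group. The mean log2 fold change was 0.21 (SE 0.0880, 95% interval 0.03 to 0.39, edgeR adjusted p = 0.150). With si47 it was 0.26 (edgeR adjusted p = 0.129), and it passed without si47 replicate 4 (log2 0.35, adjusted p = 0.0379). Its 9 processed pseudogenes together had 11 to 55 counts per library, 3.23% of the EIF4B counts.

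None of the scaffolds was called against siNTC by the main test. EIF4G1, the main scaffold of the complex (chr3, 184314495 to 184335358, plus strand), was at 444.2 to 467.5 CPM with siNTC, 445.4 to 478.9 with si45, 444.7 to 465.2 with si46 and 391.3 to 502.4 with si47. The si47 libraries held both the highest and the lowest value, in replicates 3 and 4. Its mean log2 fold change of -0.01 had the narrowest interval of the members, -0.14 to 0.12 (edgeR adjusted p = 0.941). EIF4G3, a second scaffold (chr1, 20806292 to 21176888, minus strand), had group means of 83.3 ± 13.4, 76.4 ± 6.01, 81.3 ± 7.15 and 83.2 ± 5.05 CPM in the order siNTC, si45, si46 and si47. Its groups overlapped, and its mean log2 fold change was -0.06 (95% interval -0.23 to 0.12, edgeR adjusted p = 0.772).

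EIF4G2, or DAP5, resembles the middle and end of eIF4G1 but lacks the part that binds eIF4E (ENSG00000110321, chr11, 10797050 to 10809110, minus strand). It was at 912.5, 943.2, 907.8 and 964.4 CPM in siNTC replicates 1 to 4 and at 916.3, 787.0, 761.7 and 914.8 with si45. It was at 1050.6, 935.2, 931.4 and 1086.0 with si46 and at 1148.5, 1001.1, 948.6 and 1203.2 with si47. The si45 libraries all lay below the si47 libraries, replicate 3 was the lowest in all 4 groups, and the controls overlapped both. Against siNTC the log2 fold changes were -0.14, 0.10 and 0.21 with si45, si46 and si47 (edgeR adjusted p = 0.572, 0.645 and 0.132), and the mean was 0.06. With the replicate number as a block, EIF4G2 was called with si47 (log2 0.20, edgeR adjusted p = 0.0259).

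Between the siRNAs, 0 of 10 members were called by edgeR in any of the 3 comparisons. At an unadjusted p under 0.05, 1 member differed for si46 against si45, 1 for si47 against si45 (EIF4G2 in both) and 0 for si47 against si46. Of all genes tested, 0.0282%, 0.169% and 0.0493% were called in these comparisons, and 4.10%, 10.4% and 7.29% were at an unadjusted p under 0.05. EIF4G2 was 1.27-fold higher with si47 than with si45 (log2 0.35, SE 0.0863, 95% interval 0.17 to 0.52, edgeR adjusted p = 0.0749). DESeq2 called this difference (adjusted p = 0.0135), as did edgeR with the replicate number as a block (log2 0.35, adjusted p = 5.60e-04) and edgeR without si47 replicate 3 (log2 0.40, adjusted p = 0.0147). limma-voom called 0 members in all 3 comparisons. For si46 against si45 the EIF4G2 difference was 0.24 (95% interval 0.07 to 0.42) and for si47 against si46 it was 0.10 (95% interval -0.07 to 0.28). By the main test, which ignores the replicate number, the members' response was therefore not shown to differ between the separate siRNAs. With the replicate block, EIF4G2 did differ between si47 and si45. The intervals of the main test do not show the responses to be equal.

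The genes around eIF4F were read from 3 lists, here by the mean of the 3 siRNAs against siNTC. Of all genes tested, 3.61% were higher and 3.53% lower in this comparison. The lists were chosen with earlier results of these data known, and the 3 genes named first in each are those with its lowest p in this fit. Of 20 cap-binding, poly(A)-binding and regulatory partners, 19 were tested, 1 was higher and 0 were lower, with a median log2 fold change of -0.04. The one was PABPC4, a cytoplasmic poly(A)-binding protein, which went from 434 ± 29.8 CPM with siNTC to 495 ± 24.0, 507 ± 34.0 and 587 ± 34.0 with si45, si46 and si47. It rose by 0.28 on the log2 scale (SE 0.0659, edgeR adjusted p = 0.00546), a call lost without siNTC replicate 3 (adjusted p = 0.0559). EIF4A3, the eIF4A paralog of the exon junction complex, had a log2 fold change of 0.25 (edgeR adjusted p = 0.0811), which passed without si45 replicate 3 or without si46 replicate 3. PABPC1, the main poly(A)-binding protein, had 0.15 (edgeR adjusted p = 0.204).

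Of 27 genes of the mTOR pathway, which controls 4E-BP1, 26 were tested, 3 were higher and 1 was lower, with a median of 0.0011. The 3 higher were SESN1, SESN2 and DDIT4, which encode inhibitors of mTOR complex 1 and are known stress-responsive genes. SESN1 went from 6.98 ± 2.02 CPM with siNTC to 22.5 ± 7.24, 20.8 ± 4.83 and 31.2 ± 5.41 (log2 1.80, SE 0.199, edgeR adjusted p = 2.16e-07). SESN2 went from 28.3 ± 3.71 CPM to 71.3 ± 16.5, 75.0 ± 8.14 and 115 ± 33.0 (log2 1.59, SE 0.169, edgeR adjusted p = 7.65e-06). DDIT4 went from 19.0 ± 5.11 CPM to 29.3 ± 8.94, 36.9 ± 4.97 and 54.2 ± 15.3 (log2 1.03, SE 0.202, edgeR adjusted p = 0.00330). SESN1 and SESN2 were called with all 3 siRNAs and DDIT4 with si46 and si47 (with si45, log2 0.63, edgeR adjusted p = 0.284). AKT2, a kinase upstream of mTOR complex 1, was the one lower, by -0.28 (edgeR adjusted p = 0.0291). It was outside the 3 lowest p of its list and is named because it was called. The 3 rises were larger than that of any eIF4F member called for the mean.

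Of 32 other initiation factors, all were tested, 3 were higher and 0 were lower, with a median of 0.06. EIF3H, a subunit of eIF3, rose by 0.30 (edgeR adjusted p = 0.0162). EIF1B and EIF1, which act in start codon selection, rose by 0.41 and 0.38 (edgeR adjusted p = 0.0241 and 0.0256). All 3 calls were lost without siNTC replicate 1 or without siNTC replicate 3, that of EIF1B also without siNTC replicate 2 and that of EIF1 without siNTC replicate 4. Their adjusted p ranged from 0.00718 to 0.0823 for EIF3H, from 0.00600 to 0.158 for EIF1B and from 3.12e-04 to 0.104 for EIF1 over the 16 left-out libraries. With si47 alone, 5 of the 32 were higher and 0 lower, beside 697 higher and 685 lower of the 14193 genes tested.

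**Figure D4:**
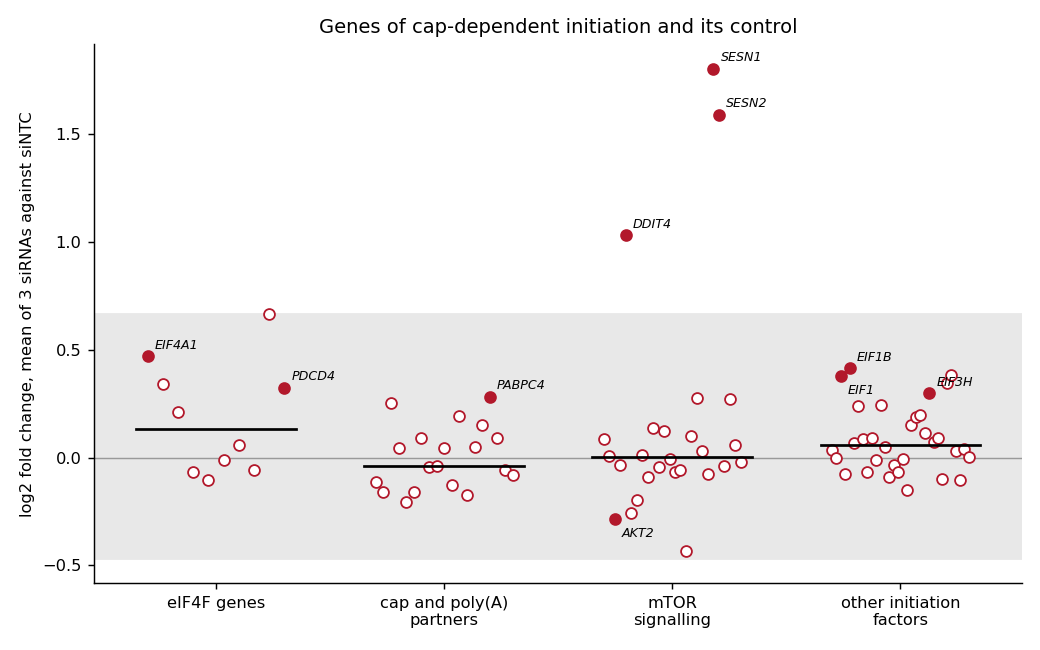
log2 fold change (y axis) by the mean of the 3 siRNAs against siNTC for the eIF4F genes and the 3 other lists; each point is a gene, filled and named where its edgeR adjusted p was under 0.05, bars are list medians, and the grey band spans the 5th to 95th percentile of all 14193 genes tested (-0.47 to 0.67). EIF4A1, PDCD4 and most other points lie inside the band, and SESN1, SESN2 and DDIT4 lie above it.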

How the data were processed

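Total RNA of 16 IMR32 samples, 4 per siRNA group, was read with a 3' end QuantSeq kit (15 PCR cycles), per the labels. The authors deposited 1 table of whole-number counts for 58787 Ensembl gene identifiers, with no normalization, and 58434 matched a symbol. The submitters' processing notes name GRCh38, FastQC 0.11.7, STAR 2.7.2b, edgeR 3.36.0 and limma 3.50.3. The annotation release, the strand setting and the treatment of reads from shared sequence are not given in the sources used here. This bears on EIF4A1 and PDCD4, and also on EIF4A2, EIF4B and EIF4G2, which share fewer exonic bases than PDCD4 with genes on the opposite strand. PCR duplicates, if kept, add to the spread between libraries.

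The test was edgeR 4.0.16 under R 4.3.3, with filterByExpr (minimum count 10, minimum total 15), TMM scaling, and 1 robust quasi-likelihood fit of 4 group means over all 16 libraries. p-values were adjusted by Benjamini-Hochberg over the 14193 genes tested in each contrast, and calls are at 0.05. Each standard error is the log2 fold change divided by the square root of F. Ratios were taken within a library after adding 0.5 to each count, with two-sided exact permutation tests adjusted over 9. Alternatives used DESeq2 1.42.0, limma-voom (limma 3.58.1), other scalings, filters and thresholds, a replicate block and left-out libraries. The fit was also run on simulated counts with the same change in all 3 siRNA groups and no effect of the replicate number. That run does not show how the fit does where libraries of the same number deviate together. No pair of replicates agreed within sampling noise. The named genes were all 10 members, TPX2, up to 3 genes of each other list with the lowest p by the mean of the 3 siRNAs, and the 3 genes most alike to EIF4A1, EIF4E, EIF4G1 and PDCD4. One marker gene of the neuroblast list is not reported here, and the sum of that list is without it. Members and lists were chosen with earlier results of these data known.

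By a correlation over 0.1, same-numbered libraries deviated together in every pair only for si45 and si47 (0.120 to 0.242 over genes). The main test had no block in any comparison. The fit with the replicate number as a block is given beside it for si47 against si45 and for some members against siNTC. Another rule, the best match of each library, pointed at more pairs of groups and is given below. For the 5 other pairs of groups the lowest correlation was under 0.1.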

Additional observations from a re-analysis of the deposited data

Results flagged for a closer look

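Of 60 groups of 4 libraries examined (member levels, TPX2 and ratios), 5 had 1 library far from the other 3, where chance flags about 1 in 20 groups, or 3 here. EIF4B stood at 108 CPM in si47 replicate 4, beside 143.7 to 144.2 in the 3 others. si45 replicate 3 had 121 CPM of TPX2, beside 79.4 to 85.1, so that library kept the most TPX2 mRNA of the si45 group. The same library had the lowest EIF4A1, EIF4A2, EIF4G2, EIF4G3, EIF4B and EIF4H levels of its group and the highest EIF4E and EIF4EBP1 levels. EIF4A2 and EIF4G2 were lowest in replicate 3 of all 4 groups, siNTC included. The part of the TPX2 level of si45 replicate 3 in these levels was not tested. The log2 ratio of EIF4A1 to EIF4A2 in si45 replicate 1 was -2.47 against -1.98 to -1.90. The log2 ratio of EIF4EBP1 to EIF4E was -0.0403 in si45 replicate 1 against -0.28 to -0.24, and 0.36 in si47 replicate 2 against -0.26 in the others, the library with the lowest EIF4E.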

How the results depend on the processing

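No called value changed sign under any alternative run, and uncalled values near 0 were not counted when they did. Members called with si45 went from 0 to 1 with no filter and without the replicate 3 libraries of all 4 groups. With si46 they went from 1 to 0 under limma-voom, with at least 10 counts in every library and at a threshold of 0.01. With si47 they went from 2 to 0 at 0.01. By the mean they went from 2 to 1 under limma-voom, to 4 with no filter and to 0 at 0.01. Over all genes, calls by the mean were 1014 of 14193 in the main fit, 972 under limma-voom, 1268 of 28981 with no filter and 440 at 0.01. For si47 against si45 the members called went from 0 to 1 under DESeq2 and with no filter. Called cap partners went from 1 to 2 without the replicate 3 libraries, and other initiation factors from 3 to 0 at 0.01. Leaving out 1 library at a time gave 0 to 1 members with si45, 0 to 1 with si46, 0 to 3 with si47, 0 to 3 by the mean, 0 to 0 for si46 against si45, 0 to 1 for si47 against si45 and 0 to 0 for si47 against si46. It gave 0 to 2 cap partners, 3 to 5 mTOR pathway genes and 0 to 4 other initiation factors. Over all genes, it gave 629 to 1388 calls by the mean, and 629 to 677 where the library left out was of siNTC. Lost member calls there came with fewer calls over all genes. TPX2 stayed between -2.07 and -1.97. The causes were not tested. EIF4H had 21 to 94 counts per library, which limits its precision. Fitting only the groups compared was not run for the mean, which uses all groups.

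With the replicate number as a block, members called went to 1 with si45, 5 with si47, 5 by the mean and 1 for si47 against si45, and cap partners to 2. Over all genes, calls by the mean also went up with the block, from 1014 to 1817 of 14193, and those of the other comparisons are not given here. EIF4A2 (adjusted p = 0.00148), EIF4B (0.0450) and EIF4H (0.0115) joined EIF4A1 and PDCD4 by the mean (edgeR). Every library correlated best with its own number for si45 against si46, si45 against si47, si46 against si47 and siNTC against si45 (8 of 8), and 5 of 8 did for siNTC against si46 and against si47, a hint from the data rather than the design.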

Other observations

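The genes whose log2 CPM followed single members most closely over the 16 libraries are given as a description, with no test, since the libraries share groups and scaling. Each has Pearson's r, Spearman's rho, and r of the deviations from group means. For PDCD4 they were SNORA80E (0.929, 0.885 and 0.828), the histone gene H2BC21 (0.915, 0.876 and 0.669) and PCMTD1 (0.912, 0.835 and 0.802). For EIF4A1 they were FTH1, the ferritin heavy chain (0.872, 0.826 and 0.813), LINC02986 (0.841, 0.829 and 0.807) and the nuclear RNA NEAT1 (0.818, 0.782 and 0.682). For EIF4E they were CD248 (0.851, 0.656 and 0.808), TLX3 (0.849, 0.65 and 0.832) and COPG2IT1 (0.831, 0.732 and 0.815). For EIF4G1 they were TRIM28 (0.817, 0.724 and 0.848), PLPPR4 (0.807, 0.494 and 0.835) and SRRM2-AS1 (0.797, 0.582 and 0.842).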
